A study of Mus musculus with 9 samples.

Results

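The genes described here are 9 markers of tissue macrophages, taken by symbol from count tables of 23420 genes: Csf1r, Tyrobp, Fcer1g, C1qa, C1qb, C1qc, Lyz2, Cd68 and Aif1. All 9 were found and all passed the filter on low counts, which left 16360 genes. The samples were ovaries from wild-type CD1 mice at embryonic day 16, kept for 24 hours on culture inserts in a medium without phenol red that held insulin, transferrin, selenium and linoleic acid. They received recombinant human BMP2 at 50 ng/ml, estradiol-17β (E2) at 3.67 µM, or vehicle, with 3 libraries to a treatment. BMP2 is a growth factor of the TGFβ family and E2 is the main oestrogen. Nothing in the labels tells whether libraries of 1 treatment came from separate animals or cultures, so the p-values cover the spread between libraries alone, which may be technical.

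Tissue macrophages settle in fetal organs from yolk sac and fetal liver precursors, where they clear dying cells. They survive on signals through the receptor CSF1R, sense their surroundings through receptors that pair with the adaptors TYROBP and FCER1G, and are a main source of the complement protein C1q. PU.1, the transcription factor encoded by Spi1 and listed in the files as Sfpi1, is needed to form them and binds purine-rich sites in many of their promoters.

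Total gene counts ran from 33360565 to 34320077 per library with BMP2, 30418674 to 31778161 with E2 and 30860223 to 34253992 with vehicle. Reads in no gene made up a mean of 13.6% of all reads with BMP2, 14.6% with E2 and 13.8% with vehicle. The 9 macrophage genes held 2806 to 3843 counts per library. Defining genes of the ovary were present in every group: the germ cell gene Ddx4 averaged 192 ± 0.603 CPM (counts scaled to library size with TMM factors, mean ± SD, n = 3) with BMP2, 189 ± 1.55 with E2 and 177 ± 2.74 with vehicle. Foxl2, which marks pregranulosa cells, averaged 65.3 ± 0.578 CPM with BMP2, 59.7 ± 2.54 with E2 and 56.5 ± 1.26 with vehicle. Lymphocyte markers were low, with 7 genes summing to 0.639 to 0.746 CPM with BMP2, 0.561 to 1.14 with E2 and 0.556 to 0.865 with vehicle, and Ncr1 had 0 counts throughout.

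Promoter sequences from RefSeq (GRCm38.p6) were at hand for 6 of the 9 genes, and 4 are shown because their genes had the 3 smallest p-values with E2 (Lyz2, C1qb and Cd68) and a neighbour of C1qb in the same cluster (C1qc). The C1q genes C1qa, C1qb and C1qc lie within 18675 bases of chromosome 4 on 1 strand. The windows end just before the annotated start, on the minus strand in each case: chr10:117282322-117282522 for Lyz2, chr4:136886201-136886450 for C1qb, chr4:136893066-136893164 for C1qc and chr11:69666171-69666420 for Cd68. Capitals mark GAGGAA and AGGAAGT, pieces of the PU.1 consensus that overlap each other, on either strand.
Lyz2: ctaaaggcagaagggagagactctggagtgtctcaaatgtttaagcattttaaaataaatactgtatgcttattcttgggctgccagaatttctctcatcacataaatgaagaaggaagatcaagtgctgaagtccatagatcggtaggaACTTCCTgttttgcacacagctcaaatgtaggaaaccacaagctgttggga
C1qb: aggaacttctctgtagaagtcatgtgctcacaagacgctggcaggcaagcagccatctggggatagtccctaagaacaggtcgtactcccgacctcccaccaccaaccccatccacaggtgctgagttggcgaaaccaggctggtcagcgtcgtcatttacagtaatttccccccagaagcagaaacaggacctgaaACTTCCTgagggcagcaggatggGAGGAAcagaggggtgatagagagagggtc
C1qc: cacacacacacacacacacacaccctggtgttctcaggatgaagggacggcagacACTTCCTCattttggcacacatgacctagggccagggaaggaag
Cd68: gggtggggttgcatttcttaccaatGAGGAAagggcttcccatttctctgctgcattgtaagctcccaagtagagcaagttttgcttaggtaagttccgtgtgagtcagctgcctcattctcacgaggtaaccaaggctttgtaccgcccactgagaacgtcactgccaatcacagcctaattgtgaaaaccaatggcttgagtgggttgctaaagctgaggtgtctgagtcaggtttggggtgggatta
In the 250 bases before the RefSeq start, 5 of the 6 genes held at least 1 of these pieces, against 27.3% of all 32851 promoters in the table. The exception was Fcer1g. In Aif1 the match lay past the annotated start, outside a window of the kind shown. The full oestrogen response element (GGTCA, any 3 bases, then TGACC, the same on both strands) was in none of the 6 and in 0.0639% of all promoters. The motifs were chosen after the promoters had been viewed, and a match is a description of letters in a window, not a binding site.

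With E2, macrophage genes were lower than with vehicle. Lyz2, C1qa, C1qb, Tyrobp and Cd68 fell by 15.5% to 25.2%, and the other 4 genes had negative log2 fold changes that did not pass. With BMP2, none of the 9 passed against vehicle. Among all 16360 tested genes, 32.3% passed with E2 (16.5% lower) and 13.7% with BMP2, at an adjusted p under 0.05. The summed level of the 9 genes was 105 to 109 CPM with BMP2, 92.6 to 95.6 with E2 and 107 to 112 with vehicle, so the E2 libraries lay below all others. In bulk RNA, fewer macrophages and less of these transcripts per macrophage cannot be told apart.

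**Figure D1:**
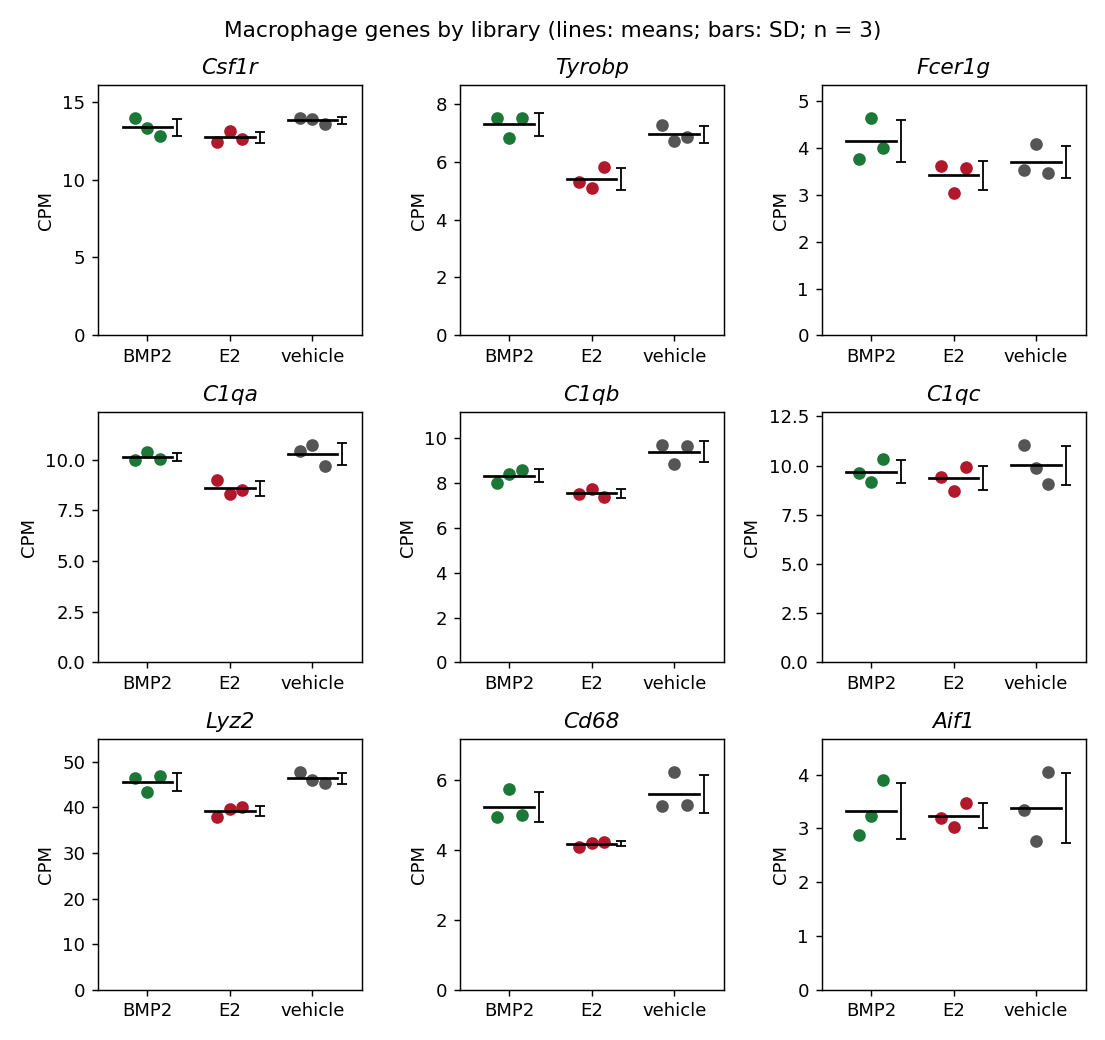
Level of each of the 9 macrophage genes in CPM (y axis) in the 3 libraries of each group (points), with the mean (line) and SD (bar). The E2 libraries lie below all vehicle libraries for Csf1r, Tyrobp, C1qa, C1qb, Lyz2 and Cd68, and overlap them for Fcer1g, C1qc and Aif1. Among all tested genes, E2 and vehicle libraries did not overlap for 41.2% (20.9% lower with E2).

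CSF1R is the receptor for the growth factors CSF1 and IL-34, and its gene is widely used to mark macrophages. Csf1r, on chromosome 18 from 61100598 to 61132149, had 13.9, 13.3 and 12.8 CPM in BMP2 libraries, 12.4, 13.1 and 12.6 in E2 libraries and 14.0, 13.9 and 13.6 in vehicle libraries. The E2 libraries were all below the vehicle libraries, yet the difference was small and did not pass (log2 fold change -0.12, 95% confidence interval -0.25 to 0.017, adjusted p = 0.187 by edgeR's quasi-likelihood test). BMP2 and vehicle libraries overlapped (log2 fold change -0.049, interval -0.18 to 0.083, adjusted p = 0.711). Exons of Hmgxb3 on the opposite strand cover 15.1% of Csf1r's exon bases, and Hmgxb3 itself did not pass with E2 (log2 fold change -0.054, adjusted p = 0.286).

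Tyrobp and Fcer1g encode small adaptor chains whose cytoplasmic ITAM motif recruits the kinase SYK. Tyrobp, on chromosome 7 from 30413760 to 30417585, had 7.53, 6.83 and 7.52 CPM with BMP2, 5.31, 5.08 and 5.81 CPM with E2 and 7.28, 6.71 and 6.86 CPM with vehicle. All E2 libraries lay below all others, and Tyrobp fell by 22.3% with E2 (log2 fold change -0.36 ± 0.098 SE, adjusted p = 0.00152). Between BMP2 and vehicle it did not pass (log2 fold change 0.068, interval -0.11 to 0.25, adjusted p = 0.701). Fcer1g, on chromosome 1 from 171229572 to 171234365, had 3.78, 4.65 and 4.01 CPM with BMP2, 3.63, 3.05 and 3.57 CPM with E2 and 3.54, 4.08 and 3.46 CPM with vehicle. Its groups overlapped in both comparisons with vehicle, and it did not pass with E2 (log2 fold change -0.11, interval -0.36 to 0.14, adjusted p = 0.555) or BMP2 (0.17, interval -0.072 to 0.41, adjusted p = 0.414). FCER1G is also a chain of the IgE receptor of mast cells, whose marker genes moved in opposite directions under these treatments (given further on). Their part in the values of Fcer1g was not tested.

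C1qa, C1qb and C1qc encode the A, B and C chains that assemble into C1q, the recognition part of the classical complement pathway. C1qa had 9.99, 10.4 and 10.1 CPM with BMP2, 9.00, 8.29 and 8.5 CPM with E2 and 10.4, 10.7 and 9.70 CPM with vehicle, and it fell by 16.4% with E2 (log2 fold change -0.26 ± 0.080 SE, adjusted p = 0.00668). C1qb had 7.99, 8.41 and 8.57 CPM with BMP2, 7.52, 7.75 and 7.36 CPM with E2 and 9.71, 8.85 and 9.64 CPM with vehicle, and it fell by 19.8% with E2 (log2 fold change -0.32 ± 0.084 SE, adjusted p = 0.00122). For both genes the E2 and vehicle libraries did not overlap. C1qc, which lies between them, had 9.61, 9.16 and 10.3 CPM with BMP2, 9.43, 8.70 and 9.92 CPM with E2 and 11.1, 9.89 and 9.09 CPM with vehicle. Its libraries overlapped across all groups, and it did not pass with E2 (log2 fold change -0.10, interval -0.26 to 0.059, adjusted p = 0.369). The intervals of the 3 chains overlap, and a difference between chains was not tested.

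C1qb was the one macrophage gene whose BMP2 and vehicle libraries did not overlap, with every BMP2 library below every vehicle library. The log2 fold change with BMP2 was -0.18 ± 0.081 (SE), with an adjusted p of 0.141 over all genes by edgeR. Over all tested genes, 28% did not overlap between BMP2 and vehicle (14.1% higher and 14% lower with BMP2). C1qa (log2 fold change -0.020, adjusted p = 0.909) and C1qc (-0.048, adjusted p = 0.762) gave smaller values. The 3 chains together summed to 27.6 to 28.9 CPM with BMP2, 24.7 to 26.0 with E2 and 28.4 to 31.2 with vehicle. The BMP2 and vehicle sums overlapped, while the E2 sums lay below both.

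Lyz2 and Cd68 belong to the degradative machinery of phagocytes. Lyz2, which encodes the lysozyme of macrophages and neutrophils, lies on chromosome 10 from 117277331 to 117282321 and was the deepest of the 9, with 12855 counts over the 9 libraries. It had 46.4, 43.4 and 47.0 CPM with BMP2, 37.9, 39.7 and 40.1 CPM with E2 and 47.8, 46.1 and 45.5 CPM with vehicle. It fell by 15.5% with E2 (log2 fold change -0.24 ± 0.040 SE, adjusted p = 1.9e-07), and with BMP2 it did not pass (log2 fold change -0.027, interval -0.10 to 0.050, adjusted p = 0.728). Lyz1, a near copy separated from Lyz2 by 5475 bases, averaged 4.75 ± 0.182 CPM with BMP2, 4.61 ± 0.314 with E2 and 4.82 ± 0.464 with vehicle. It did not pass with E2 (log2 fold change -0.063, adjusted p = 0.719). Reads that fit both copies cannot be assigned to one, so the split between Lyz1 and Lyz2 is uncertain.

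Cd68, a heavily glycosylated protein of late endosomes and lysosomes, lies on chromosome 11 from 69664213 to 69666153. It had 4.95, 5.73 and 5.0 CPM with BMP2, 4.09, 4.19 and 4.23 CPM with E2 and 5.26, 6.22 and 5.28 CPM with vehicle. The E2 libraries were below all others, and Cd68 fell by 25.2% with E2, the largest change among the 9 genes (log2 fold change -0.42 ± 0.11 SE, adjusted p = 0.00129). With BMP2 it did not pass (log2 fold change -0.096, interval -0.30 to 0.11, adjusted p = 0.624). Aif1 encodes IBA1, an actin-binding protein that microscopists use to stain macrophages, and lies on chromosome 17 from 35170991 to 35176068. It had 2.87, 3.22 and 3.89 CPM with BMP2, 3.20, 3.02 and 3.48 CPM with E2 and 3.33, 2.76 and 4.05 CPM with vehicle. Its libraries overlapped in every comparison, and it did not pass with E2 (log2 fold change -0.068, interval -0.34 to 0.20, adjusted p = 0.757) or BMP2 (-0.024, interval -0.29 to 0.24, adjusted p = 0.942).

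In the comparison of E2 with vehicle, 5 of 9 macrophage genes were called lower and none higher, where 32.3% of all 16360 tested genes were called, 15.8% higher and 16.5% lower. The E2 libraries did not overlap the vehicle libraries for 6 of the 9, all lower, against 41.2% of all tested genes (20.4% higher and 20.9% lower). The median log2 fold change was -0.24 for the 9 genes and -0.0026 for all genes tested, and 11.2% of all genes had a lower log2 fold change than that median. Without Lyz2, the other 8 genes summed to 53.2 to 55.5 CPM with E2 and 61.7 to 64.6 CPM with vehicle. The intervals of Csf1r, Fcer1g, C1qc and Aif1 all include the value of Lyz2, so a change of that size was not excluded for them. The same 5 genes were called in each of the 6 fits that left out 1 of the libraries compared, with DESeq2, and under every other setting tried.

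**Figure D2:**
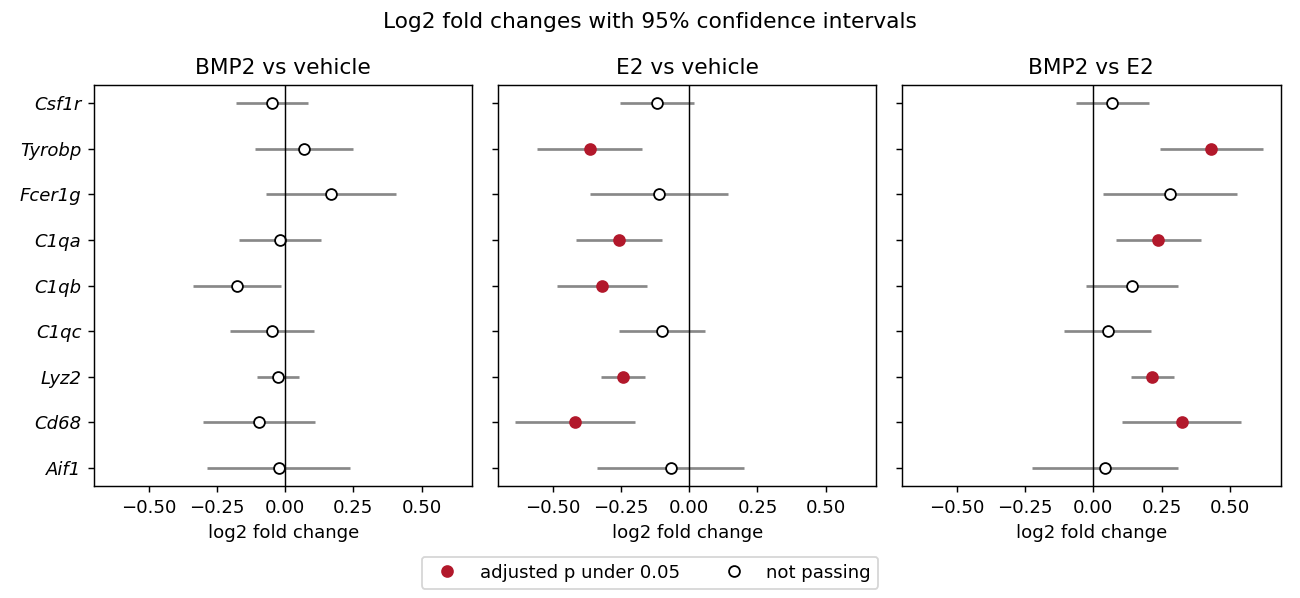
Log2 fold change (x axis) of each macrophage gene with its 95% confidence interval, for BMP2 against vehicle, E2 against vehicle and BMP2 against E2. Filled points pass an adjusted p under 0.05: none of 9 for BMP2 against vehicle, 5 for E2 against vehicle and 4 for BMP2 against E2. Among all tested genes, 13.7%, 32.3% and 28.2% passed in these comparisons.

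In the comparison of BMP2 with vehicle, 0 of 9 were called by edgeR and 0 by DESeq2, where edgeR called 13.7% of all tested genes, 6.84% higher and 6.85% lower. At an unadjusted p under 0.05, 1 of the 9 passed (C1qb), against 25.5% of all tested genes. The median log2 fold change was -0.027 for the 9 genes, with a range from -0.18 for C1qb to 0.17 for Fcer1g, and -0.0015 for all genes. The interval of Lyz2, the most precisely measured, runs from -0.10 to 0.050 on the log2 scale, while those of Aif1 and Fcer1g reach from -0.29 to 0.24 and from -0.072 to 0.41.

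The direct comparison of BMP2 with E2 shares the E2 libraries with the comparison of E2 with vehicle. Here 4 of 9 were higher with BMP2, where 28.2% of all tested genes were called, 14.1% higher and 14% lower. The libraries did not overlap for 6 of 9, all higher with BMP2, against 39.6% of all tested genes (19.8% higher and 19.8% lower). Tyrobp averaged 7.29 ± 0.402 CPM with BMP2 and 5.40 ± 0.375 CPM with E2 (log2 fold change 0.43 ± 0.096 SE, adjusted p = 1.2e-04). Lyz2 was 16.1% higher (45.6 ± 1.93 with BMP2 and 39.3 ± 1.16 CPM with E2, adjusted p = 3.8e-06). Cd68 was 25.1% higher (5.22 ± 0.435 with BMP2 and 4.17 ± 0.0739 CPM with E2, adjusted p = 0.0182) and C1qa averaged 10.1 ± 0.210 CPM with BMP2 and 8.60 ± 0.369 CPM with E2 (adjusted p = 0.0141). Fcer1g (log2 fold change 0.28, adjusted p = 0.0810) and C1qb (0.14, adjusted p = 0.217) did not overlap between BMP2 and E2 and did not pass. DESeq2 called Lyz2 and Tyrobp but neither Cd68 (adjusted p = 0.0806) nor C1qa (0.0623). Without BMP2 replicate 2 neither was called (adjusted p = 0.134 for Cd68 and 0.0549 for C1qa), and Cd68 was lost without E2 replicate 1 (0.0566) and C1qa without E2 replicate 2 (0.0714).

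Levels of different genes were set side by side per kilobase of exon. Lyz2 was the most abundant at 34.6 ± 1.47 CPM per kilobase with BMP2, 29.8 ± 0.884 with E2 and 35.3 ± 0.927 with vehicle. Tyrobp (10.9 ± 0.603 with BMP2, 8.10 ± 0.563 with E2, 10.4 ± 0.443 with vehicle) and C1qa (9.75 ± 0.202 with BMP2, 8.27 ± 0.355 with E2, 9.89 ± 0.505 with vehicle) came next and swapped places with E2, within their spread. C1qb followed at 7.65 ± 0.273 CPM per kilobase with BMP2, 6.93 ± 0.178 with E2 and 8.64 ± 0.439 with vehicle. C1qc, whose annotated exons are longer, had 5.02 ± 0.302 with BMP2, 4.84 ± 0.319 with E2 and 5.18 ± 0.512 with vehicle. Fcer1g and Cd68 lay between 3.32 and 4.74, and Csf1r and Aif1 between 2.11 and 2.39 CPM per kilobase in all groups. The means of Tyrobp and C1qa with E2, of Fcer1g and Cd68 with vehicle, of C1qc and Fcer1g with BMP2, and of Csf1r and Aif1 in all groups differed by less than the larger of their SDs. The library-to-library coefficient of variation of Aif1 was 15.6% with BMP2, 7.16% with E2 and 19.2% with vehicle, where counting error alone gives 9.39%, 9.97% and 9.53%. For Lyz2 it was 4.23% with BMP2, 2.96% with E2 and 2.63% with vehicle, where counting error gives 2.54%, 2.86% and 2.57%.

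A list of 30 other macrophage genes held 28 that passed the filter, and with E2 7 of these fell, 2 rose and 19 did not pass. Over all tested genes 32.3% were called with E2, 16.5% lower and 15.8% higher, so the share called in the list was close to that of all genes. The list's median log2 fold change was -0.15, against -0.0026 for all genes. Mrc1, the mannose receptor, fell by 24.0% (log2 fold change -0.40 ± 0.070 SE, adjusted p = 9.1e-07). Laptm5, a lysosomal membrane protein of leukocytes, fell by 30.9% (adjusted p = 5.9e-06), the fractalkine receptor gene Cx3cr1 fell by 23.2% (adjusted p = 1.4e-04) and the scavenger receptor gene Stab1, which endothelium also expresses, fell by 16.6% (adjusted p = 5.2e-04). Sfpi1, the gene for PU.1, fell by 30.5% with E2 (1.90 ± 0.144 against 2.74 ± 0.0458 CPM, adjusted p = 0.00608). With BMP2 it also passed (2.01 ± 0.282 against 2.74 ± 0.0458 CPM, adjusted p = 0.0371), but that call was lost with DESeq2 (0.145) and without any 1 of BMP2 replicates 1 and 2 and vehicle replicates 1, 2 and 3 (0.0655 to 0.180).

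F13a1, the coagulation factor XIII A chain, had 5.56, 6.26 and 6.33 CPM with BMP2, 4.82, 7.05 and 5.43 CPM with E2 and 4.74, 4.51 and 4.54 CPM with vehicle. It rose with BMP2 (adjusted p = 0.00468). It passed with E2 (log2 fold change 0.33, adjusted p = 0.0132), but not with DESeq2 (0.0713) or without E2 replicate 2 (log2 fold change 0.16, adjusted p = 0.366). Widely used markers named after their values were seen did not pass with E2. Emr1 (now Adgre1), an adhesion receptor used to mark macrophages, averaged 19.9 ± 0.529 CPM with E2 and 20.6 ± 1.12 CPM with vehicle (log2 fold change -0.053, interval -0.17 to 0.059). Ptprc, the gene for the leukocyte antigen CD45, averaged 4.66 ± 0.915 CPM with E2 and 4.27 ± 0.577 CPM with vehicle (log2 fold change 0.13, interval -0.11 to 0.36). The remaining members that fell, Trem2 (adjusted p = 0.0307) and Cd14 (0.0452), lost their calls with DESeq2 (0.137 and 0.136). Trem2 also lost it without vehicle replicate 3 (0.322), E2 replicate 1 (0.220) or E2 replicate 3 (0.103), and Cd14 without vehicle replicates 1 or 3 or any E2 replicate (0.0525 to 0.226). With BMP2 1 of the 28 rose, 1 fell and 26 did not pass, where 13.7% of all tested genes were called.

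Ligands of CSF1R come from stromal and epithelial cells. Il34 fell by 25.2% with E2 (8.85 ± 0.647 against 11.8 ± 0.324 CPM, adjusted p = 3.2e-06) and did not pass with BMP2 (12.1 ± 1.08 CPM, log2 fold change 0.027). Csf2rb, the beta chain of other myeloid growth factor receptors, passed with BMP2 (adjusted p = 0.0454) but not with DESeq2 (0.188) or without BMP2 replicates 2 or 3 or vehicle replicates 1 or 2 (0.0687 to 0.423). Csf1 averaged 11.3 ± 0.512 CPM with E2 and 12.7 ± 0.387 CPM with vehicle and did not pass (adjusted p = 0.0735). Of the 10 tested partners of the ITAM adaptors, 2 rose, 2 fell and 6 did not pass with E2, where 32.3% of all tested genes were called. Syk, whose kinase many cell types use, was 1.91-fold higher (63.7 ± 3.96 against 33.3 ± 0.681 CPM, adjusted p = 2.6e-47). The phospholipase gene Plcg2 also rose, with an adjusted p of 0.0252 that was lost with DESeq2 (0.0939) and without vehicle replicates 1 or 2 or E2 replicates 1 or 2 (0.0562 to 0.198). The inhibitory Fc receptor gene Fcgr2b fell (log2 fold change -0.30 ± 0.094 SE, adjusted p = 0.00755), a call lost without E2 replicate 2 (0.0639), as did Trem2, described above. With BMP2 none of the 10 passed, where 13.7% of all tested genes were called.

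C1q works with the proteases C1r and C1s. Of 11 other complement genes tested, 3 fell with E2, none rose and 8 did not pass, where 32.3% of all tested genes were called and 16.5% were lower. C2, which C1s cleaves, fell by 22.9% with E2 (18.8 ± 0.658 against 24.3 ± 1.27 CPM, adjusted p = 4.5e-09). C1rb fell by 61.8% with E2 (1.24 ± 0.366 against 3.25 ± 0.334 CPM, adjusted p = 1.0e-11), and with BMP2 it fell by 46.4% (1.74 ± 0.164 against 3.25 ± 0.334 CPM, adjusted p = 3.9e-06). Its paralog C1ra did not pass with E2 (log2 fold change 0.022, adjusted p = 0.834). Reads of these paralogs may have been split between them. C1s averaged 29.0 ± 0.196 CPM with E2 and 29.1 ± 0.914 CPM with vehicle. The anaphylatoxin receptor gene C3ar1 fell by 14.4%, a call lost without vehicle replicate 3 (adjusted p = 0.0558) or E2 replicate 1 (0.135). Among 7 tested inhibitors of complement, 2 rose, 2 fell and 3 did not pass with E2. Cd55 was 1.62-fold higher (68.2 ± 0.818 against 42.2 ± 0.474 CPM), while Serping1, the inhibitor of C1r and C1s, fell by 9.74% and Clu fell by 9.12%. Where 13.7% of all tested genes were called with BMP2, 3 of the 7 inhibitors rose, 1 fell and 3 did not pass. Among them, Cd55 was 25.1% higher, Clu rose and Serping1 fell. The BMP2 call of Serping1 was lost without BMP2 replicate 1 (0.0587), BMP2 replicate 2 (0.0586) or vehicle replicate 3 (0.0995).

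Of 7 genes of MHC class II presentation, which activated macrophages and dendritic cells use, 2 fell with E2 and 5 did not pass, a share near the 32.3% called among all tested genes. Cd74, the invariant chain, fell by 29.2% (21.8 ± 1.04 against 30.8 ± 0.898 CPM, adjusted p = 1.8e-16), and H2-Ab1 fell by 37.0%. H2-Ab1 also fell with BMP2 (2.41 ± 0.0907 against 3.72 ± 0.361 CPM, adjusted p = 3.0e-04). Cd74 passed with BMP2 (adjusted p = 0.0349) but not with DESeq2 (0.119) or without BMP2 replicates 1, 2 or 3 or vehicle replicates 1 or 2 (0.0699 to 0.146). Of 15 other lysosome and phagocytosis genes, which most cells express, 4 rose, 3 fell and 8 did not pass with E2. Gas6, which bridges dying cells to the receptors AXL and MERTK, was 1.40-fold higher (536 ± 6.51 against 384 ± 7.83 CPM), the protease gene Ctsb 1.21-fold higher and the protease gene Ctsl 1.14-fold higher, while Axl fell by 5.30%. Of 8 macrophage chemokine genes tested, 8 had negative log2 fold changes with E2 (median -0.29) and 7 with BMP2 (median -0.28). The medians of all tested genes were -0.0026 with E2 and -0.0015 with BMP2. In each comparison 7 of the 8 did not pass, where 32.3% of all tested genes were called with E2 and 13.7% with BMP2. Ccl9 passed with E2 (log2 fold change -0.45, adjusted p = 5.3e-04) and Ccl2 passed with BMP2 (-0.43, adjusted p = 6.9e-05). Differences between these genes or between the treatments were not tested.

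**Figure D3:**
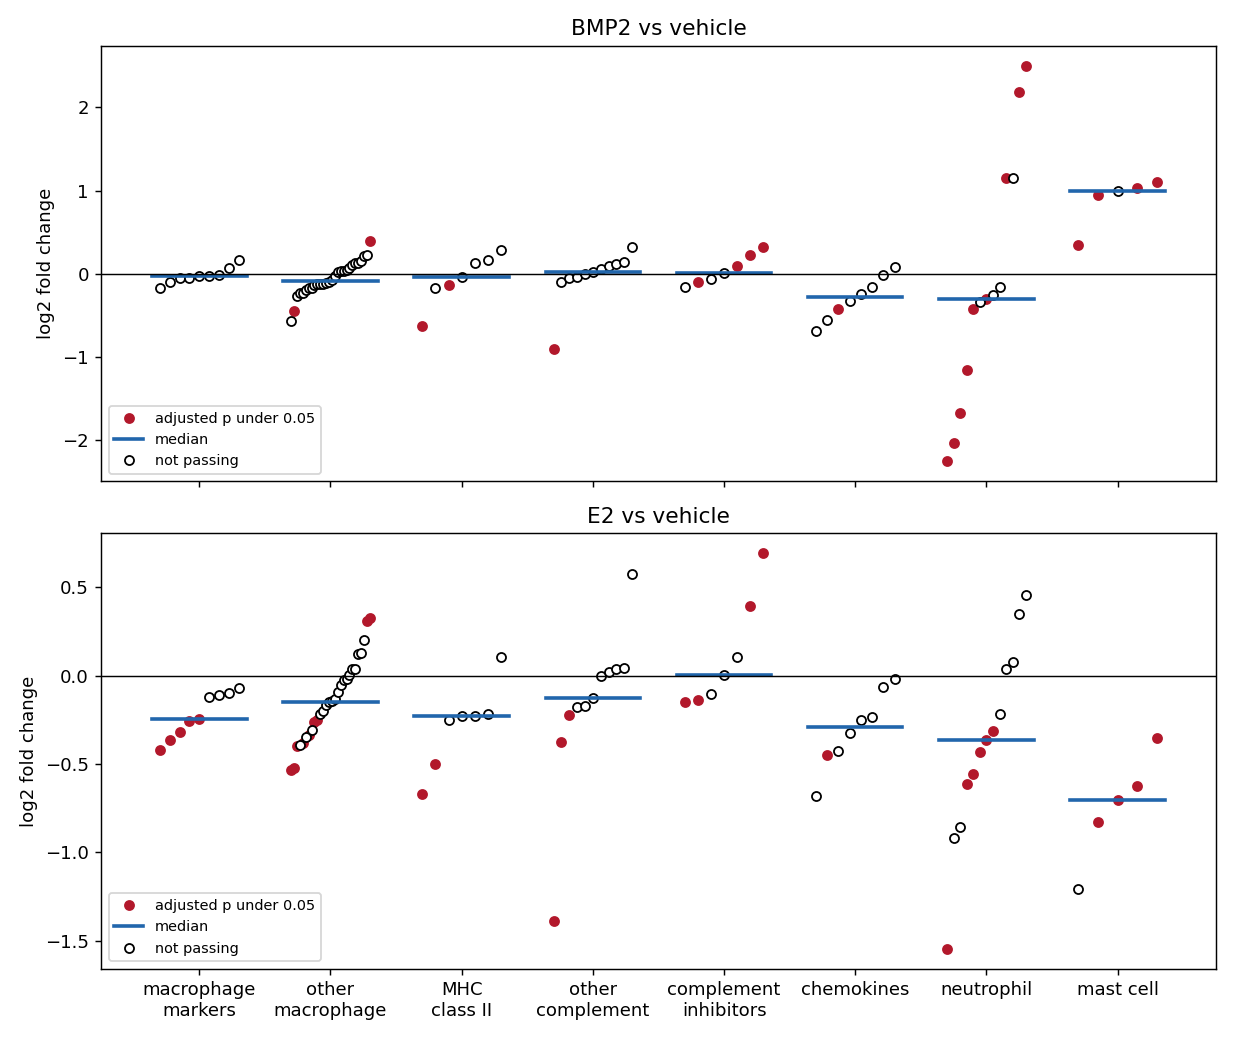
Log2 fold change (y axis) of the tested genes of each list (points, sorted within a list) for BMP2 against vehicle (top) and E2 against vehicle (bottom), with the list median as a line and filled points for an adjusted p under 0.05. The median of the 9 macrophage markers is -0.027 with BMP2 and -0.24 with E2, and that of mast cell genes is 1.00 with BMP2 and -0.71 with E2.

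Markers of other myeloid cells, which share some of the 9 genes, moved as well. The 7 mast cell genes summed to 108 to 109 CPM with BMP2, 52.5 to 56.3 with E2 and 73.1 to 75.4 with vehicle, and none was at 0 in any group. Hdc alone made up 67.7 to 68.6 CPM of the sum with BMP2, 40.7 to 43.6 with E2 and 52.9 to 55.3 with vehicle. Fcer1a had only 0 to 3 counts per library. Of the 5 mast cell genes tested, 4 rose with BMP2 and 4 fell with E2 (Hdc, Cma1, Cpa3 and Tpsb2 in each): the protease gene Cma1 averaged 13.3 ± 0.204 CPM with BMP2, 4.0 ± 0.283 with E2 and 6.51 ± 0.572 with vehicle. The 13 neutrophil granule genes summed to 52.5 to 53.6 CPM with BMP2, 61.7 to 67.2 with E2 and 82.3 to 85.8 with vehicle, again with none at 0 in any group. With BMP2 3 of them rose and 6 fell, and with E2 none rose and 6 fell. Over all tested genes, 13.7% were called with BMP2 (6.84% higher and 6.85% lower). The share called with E2 was 32.3% (15.8% higher and 16.5% lower). With BMP2 the neutrophil list split. Mpo, of azurophil granules, was 5.66-fold higher (2.22 ± 0.0970 against 0.388 ± 0.0695 CPM), Elane was 4.53-fold higher and Prtn3 2.22-fold higher. Ngp and Lcn2 fell, and Ltf, of specific granules, fell to 2.26 ± 0.158 CPM with BMP2 and 8.01 ± 0.249 CPM with E2, against 10.8 ± 0.797 CPM with vehicle. Of 6 monocyte genes, 1 (Chi3l3) fell with BMP2 and 1 (Fn1, which stroma also makes) rose with E2, the Fn1 call being lost with DESeq2 (0.0665) and without vehicle replicate 3 (0.190), E2 replicate 1 (0.0667) or E2 replicate 3 (0.156). The part of mast cells, neutrophils, sequencing depth and the share of reads in no gene in the E2 result was not tested. The 9 macrophage genes summed to 107 ± 2.04 CPM with BMP2, 93.7 ± 1.65 with E2 and 109.6 ± 2.65 with vehicle.

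**Figure D4:**
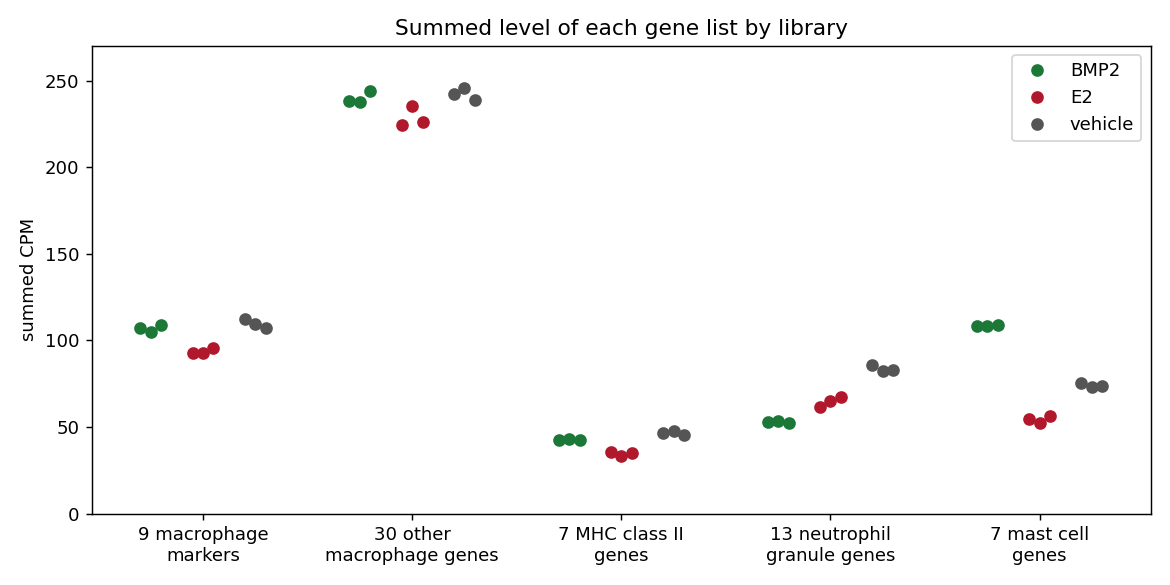
Summed level in CPM (y axis) of 5 gene lists in each library (points), by group. The 9 macrophage markers sum to 105 to 109 CPM with BMP2, 92.6 to 95.6 with E2 and 107 to 112 with vehicle, and the mast cell list spreads more widely, from 108 to 109 with BMP2 to 52.5 to 56.3 with E2.

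Among 14382 other genes with a mean of at least 1 CPM, those whose log2 levels over the 9 libraries lay closest to the mean profile of the 9 macrophage genes were Ubtd2 (Euclidean distance 0.0477), Ccdc90b (0.0647), Lasp1 (0.0677), Magi2 (0.0679) and Vmac (0.0725). Their log2 fold changes with E2 were -0.20, -0.20, -0.21, -0.21 and -0.23. The nearest of the 9 to that mean profile was Lyz2 at 0.137 and the farthest Aif1 at 0.534. Closeness by this measure favours deeply counted genes, since shallow ones scatter more.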

How the data were processed

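RNA-seq libraries were made from total RNA with an Illumina TruSeq V2 RNA kit, a chemistry without strand marking, per the labels' protocols. The authors deposited raw read counts by gene, in 1 table for each library. TopHat2, HTSeq, DESeq2 and the build mm10 are named in the submitters' processing notes; for versions, annotation and strand setting: not given in the sources used here. The 5 summary rows (38.2% to 39.7% of a library's total) were left out. Groups were taken from title prefixes: B2 was read as BMP2, E2 as estradiol and C as vehicle, since no field states the treatment of a library.

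These counts went unchanged into edgeR 4.0.16 (R 4.3.3): filterByExpr (minimum count 10, minimum total 15), TMM factors and 1 robust quasi-likelihood fit to all 9 libraries. Benjamini-Hochberg adjustment ran over all tested genes, with calls at adjusted p under 0.05. The SE of a log2 fold change is its absolute value over the root of the F statistic. The scripts were tested on simulated data. Counting errors assume independent reads, which PCR copies are not. Exon lengths and positions come from GENCODE vM21 (GRCm38, the same build as mm10).

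The 9 genes and the 14 lists (141 genes, all found, 3 under an older symbol) were chosen with earlier results of these data known. Genes of the lists are named by rule: up to 4 called members with the smallest p per comparison; F13a1, Sfpi1 and Cd14 with E2, Elane and Prtn3 with BMP2, and Emr1, Ptprc, Csf1, C1ra and C1s, were added after their values were seen. Some genes counted in the lists are not reported here by name. Alternatives were DESeq2 1.42.0, median-ratio factors, other filters, only the groups compared, a replicate block, leaving out each library and a threshold of 0.01; running them on the other named genes was decided after seeing the data.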

Additional observations from a re-analysis of the deposited data

How the results depend on the processing

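With E2 against vehicle, the count of macrophage genes called was 5 under all alternatives, and the leave-one-out range was 5 to 5. With BMP2 against vehicle it was 0 under all of them. With BMP2 against E2 it was 4 in the analysis reported, 2 with DESeq2, 2 at an adjusted p under 0.01, and 2 to 4 when 1 library was left out. Over all genes, BMP2 against vehicle gave 2239 calls, 1414 with DESeq2 and 1318 at an adjusted p under 0.01; the cause was not tested. Of 351 values of macrophage genes under alternatives, 335 kept their direction and side of the threshold, 8 lost a call and 8 changed sign; of 1434 for 61 other genes of the lists and neighbours, these numbers were 1337, 92 and 5. Every change of sign was in a gene that had not passed and came from leaving out 1 library. The leave-one-out log2 fold changes for BMP2 against vehicle were -0.15 to 0.12 for Aif1, -0.049 to 0.0080 for Lyz2, -0.11 to 0.032 for C1qc, -0.059 to 0.011 for C1qa and -0.092 to 0.051 for Lyz1. For E2 against vehicle they were -0.19 to 0.081 for Aif1, -0.13 to 0.0090 for Lyz1 and -0.039 to 0.24 for Ptprc. For BMP2 against E2 they were -0.087 to 0.14 for Aif1 and -0.010 to 0.082 for Lyz1. The labels do not say that replicate numbers pair libraries. Correlations of same-numbered deviations were -0.00903 to 0.0709, and those of different-numbered deviations were -0.0414 to 0.0358. For BMP2 against vehicle the same-numbered values (0.0138 to 0.0417) all lay above the different-numbered ones (-0.0399 to 0.00784). In the other comparisons the ranges overlapped. Pairing was not tested. With the replicate number as a block, 2512, 5512 and 4875 genes and 0, 5 and 4 macrophage genes were called for BMP2 against vehicle, E2 against vehicle and BMP2 against E2. Depth limits Aif1 and Fcer1g most, at 972 and 1101 counts over 9 libraries.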
